A study of Arabidopsis thaliana with 14 samples.

Results

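Cytokinin response factor (CRF) genes were examined for binding by type-B response regulators (B-ARRs) in 10 ChIP-seq peak lists from whole Arabidopsis thaliana seedlings. The 7 members were taken by locus identifier: CRF1 (AT4G11140), CRF2 (AT4G23750), CRF3 (AT5G53290), CRF4 (AT4G27950), CRF5 (AT2G46310), CRF6 (AT3G61630) and CRF10 (AT1G68550). They are 7 of 37899 nuclear genes and pseudogenes annotated in the reference. CRFs are transcription factors of the AP2/ERF family. Cytokinin is perceived by histidine kinase receptors, and phosphotransfer proteins (AHPs) pass the signal to B-ARRs, which bind DNA and activate early response genes such as the type-A ARRs, inhibitors of the same pathway. The CRFs act beside or downstream of the B-ARRs in cotyledon, leaf, embryo and root development, and transcripts of some of them rise after cytokinin treatment: CRF2, CRF5 and CRF6 are known for this.

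The B-ARRs carried a Ypet fluorescent tag that had been recombineered into a large genomic clone, so each protein was made from its own regulatory sequence, and an antibody to GFP pulled it down. All seedlings were grown for 3 days. ARR1 was profiled after mock treatment (DMSO, 4 h) in etiolated seedlings (ARR1_m etiolated), after mock treatment in long days (ARR1_m), after 10 µM 6-benzylaminopurine (6-BA, a synthetic cytokinin) for 4 h (ARR1_BA), and after 72 h on 10 µM 6-BA (ARR1_BA3d). ARR10 and ARR12 were profiled after mock treatment and after 4 h of 10 µM 6-BA in long days, and ARR14 after 72 h of 10 µM 6-BA (ARR14_BA3d). The list titled DDK came from 4 h of 10 µM dexamethasone. Its line label reads ARR1.2ypet, whereas the study describes ARR1∆DDK as ARR1 without its receiver domain, fused to the glucocorticoid receptor, with an N-terminal YFP and the constitutive 35S promoter. The title of the 72 h ARR1 list carries an extra tag, S89S99, that the labels do not explain. Those for ARR12 appear exchanged: the study's own target columns match the list labelled 6-BA to mock and the list labelled mock to 6-BA. The 2 lists are therefore called label-mock ARR12 and label-6-BA ARR12, and the exchanged reading is given beside the comparison.

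Each condition has 1 list, made from at least 2 replicates that had been combined before deposit, so no difference between lists has a replicate error and none was tested. A peak has a score (−log10 of its p-value against input DNA), a fold enrichment over input and a summit. The lists held 1513 to 11499 peaks, and read depth was not given. The lowest score admitted ran from 4.88 in ARR1_m to 31.21 in DDK, so a weak peak can appear in some lists and not in others. Scores grow with depth, and the within-list percentile is therefore given beside them: the share of a list's peaks that score at least as high, where 0 is the top. Targets were genes that held, inside them or within 1500 bp, a summit with a score of at least 16.

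The CRF genes were bound at a few recurring positions. Below are 121-base windows centred on the median summit over the lists, read 5′ to 3′ on the strand of the gene, in RefSeq's copy of the TAIR10 nuclear sequence. Capitals mark the hexamers AGATAC or AGATAT or AGATCC or AGATCT or AGATTC or AGATTT or their reverse complements. These 6 spell out AGATHY, the B-ARR consensus named for cytokinin-treated plants. The upstream windows of CRF2, CRF3, CRF4, CRF5 and CRF6 are shown because each holds the palindrome CACGTG (a G-box), printed here in lower case. The windows of CRF1 and CRF2 are shown because both lie inside the coding sequence, and that of CRF10 because it held the highest score of any member.
CRF2 upstream, chr4:12375329-12375449, plus strand: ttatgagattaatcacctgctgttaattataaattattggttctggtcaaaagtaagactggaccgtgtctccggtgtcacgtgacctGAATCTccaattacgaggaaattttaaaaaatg
CRF3 upstream, chr5:21619472-21619592, minus strand: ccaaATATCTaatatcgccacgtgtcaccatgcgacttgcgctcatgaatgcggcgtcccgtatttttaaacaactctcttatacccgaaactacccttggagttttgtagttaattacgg
CRF4 upstream, chr4:13911389-13911509, minus strand: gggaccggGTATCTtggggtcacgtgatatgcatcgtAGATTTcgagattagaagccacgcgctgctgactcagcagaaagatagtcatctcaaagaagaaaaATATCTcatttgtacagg
CRF5 upstream, chr2:19011141-19011261, plus strand: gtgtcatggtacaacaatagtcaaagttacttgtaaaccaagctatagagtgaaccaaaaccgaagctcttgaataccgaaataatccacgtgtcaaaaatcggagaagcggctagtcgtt
CRF6 upstream, chr3:22804647-22804767, plus strand: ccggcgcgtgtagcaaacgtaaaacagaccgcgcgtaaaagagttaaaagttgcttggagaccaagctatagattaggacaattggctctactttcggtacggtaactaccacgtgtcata
CRF1 coding, chr4:6794936-6795056, minus strand: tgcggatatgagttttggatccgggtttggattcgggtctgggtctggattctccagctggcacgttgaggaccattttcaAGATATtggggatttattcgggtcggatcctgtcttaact
CRF2 coding, chr4:12377615-12377735, plus strand: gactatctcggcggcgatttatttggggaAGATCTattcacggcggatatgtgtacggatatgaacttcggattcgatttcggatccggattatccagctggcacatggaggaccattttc
CRF10 downstream, chr1:25725226-25725346, minus strand: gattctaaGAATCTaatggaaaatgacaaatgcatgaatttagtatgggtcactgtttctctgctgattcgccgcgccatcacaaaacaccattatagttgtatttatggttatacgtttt

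The CRF genes were targets in most lists from cytokinin-treated seedlings. All 7 members were targets in ARR1_BA, where 17.5% of all genes were, and all 7 in ARR1_BA3d, where 34.3% of all genes were. In ARR1_m none of the 7 was, against 0.361% of all genes, and only 73 of its 3324 peaks reached a score of 16. That made 137 genes targets in this list. The study reports many more targets for ARR1_m at the same cutoff, and the reason was not tested. Results for ARR1_m, and comparisons with it, thus describe the deposited list and may not hold for the study's own ARR1_m targets. ARR1_m etiolated called 3 members, CRF4, CRF6 and CRF10, against 5.65% of all genes. ARR10_m called 6 members (16.3% of all genes) and ARR10_BA called 5 (21.4%). Label-mock ARR12 called 7 (21.1%) and label-6-BA ARR12 called 0 (2.87%). DDK called 6 (12.4%) and ARR14_BA3d called 6 (37.9%), and the member left out in both was CRF5. Among the 27444 protein-coding genes alone the shares called ran from 0.415% in ARR1_m to 43.8% in ARR14_BA3d.

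Weaker peaks added few members. With every deposited peak counted, a summit was in range of 7 members in ARR1_BA (28.2% of all genes), 7 in ARR1_BA3d (40.2%), 7 in ARR10_m (39.6%), 6 in ARR10_BA (30.2%) and 7 in label-mock ARR12 (23.2%). ARR1_m then listed 1 member (13.1%) and label-6-BA ARR12 listed 2 (13.7%). The counts stayed the same in the 3 lists that hold no score under 16, ARR1_m etiolated, DDK and ARR14_BA3d.

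**Figure D1:**
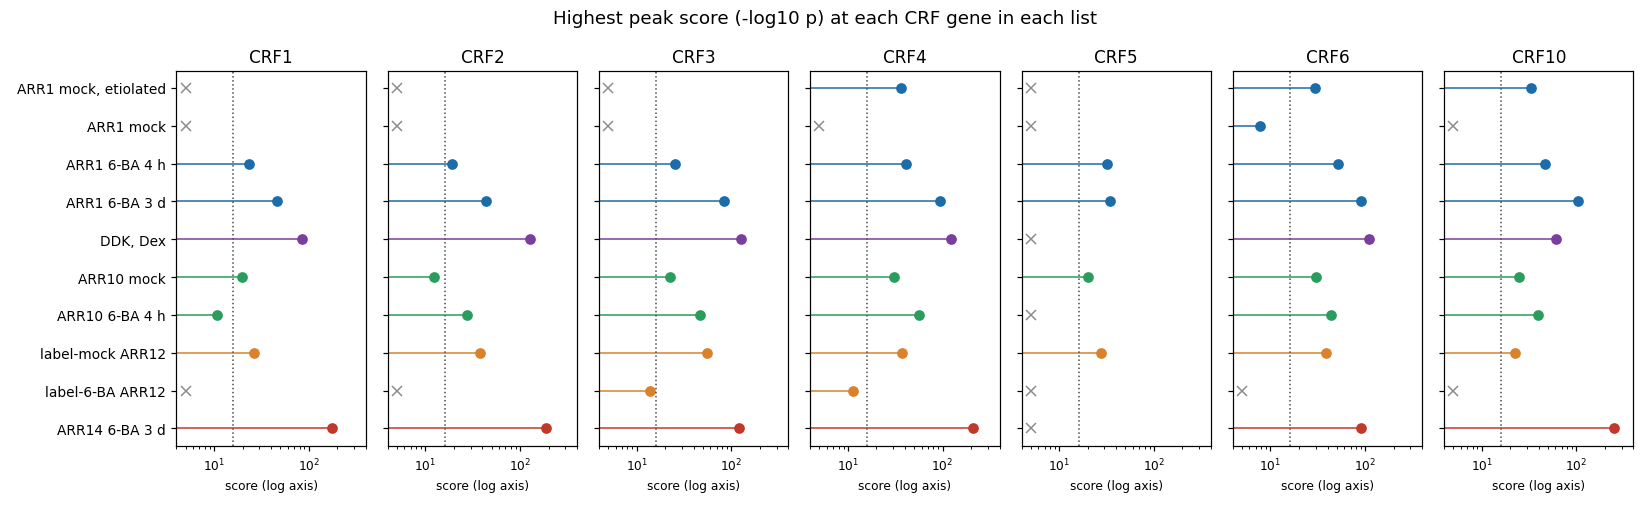
Highest peak score (−log10 p, log axis) at each of the 7 CRF genes, one panel a gene and one row a peak list. A cross marks no summit in range, and the dotted line is the score of 16. CRF4 and CRF6 have a summit in 9 lists, and CRF5 in 4.

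CRF4, a factor known for its part in cold and nitrogen responses, had a summit in 9 of the 10 lists, with scores from 11.35 to 211.12. Its highest scores were 35.92 in ARR1_m etiolated, 40.84 in ARR1_BA, 94.01 in ARR1_BA3d, 121.71 in DDK, 30.65 in ARR10_m, 56.83 in ARR10_BA, 37.21 and 11.35 in label-mock and label-6-BA ARR12, and 211.12 in ARR14_BA3d. It was missing from ARR1_m alone. In ARR14_BA3d its peak stood at percentile 3.90 and in ARR1_BA3d at 4.06. In each of these 9 lists the highest summit fell in a single stretch from -482 to -435 bp of the transcription start, upstream of the gene, a spread of 47 bp. The 200-bp window there held 4 AGATHY hexamers, and the nearest was centred 21.5 bp from the median summit. Weaker summits lay in the 5′ UTR in 2 lists, at scores of 14.61 in ARR1_BA and 22.82 in ARR10_BA, and downstream in 2 lists, at 13.6 in ARR1_BA and 16.14 in label-mock ARR12. The gene is on chromosome 4 at 13909542 to 13910995, minus strand. A long noncoding RNA gene, AT4G07955, was also in range of CRF4 peaks in 9 lists, so the peaks cannot be given to CRF4 alone. Another, AT4G07925, was in range in 3 lists, and the median summit of the downstream site lay inside it.

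CRF6, known for its part in leaf senescence and oxidative stress, also had a summit in 9 lists. The scores were 29.63 in ARR1_m etiolated, 7.82 in ARR1_m, 51.42 in ARR1_BA, 89.84 in ARR1_BA3d, 109.24 in DDK, 29.98 in ARR10_m, 43.73 in ARR10_BA, 38.52 in label-mock ARR12 and 91.23 in ARR14_BA3d. It was the only member with a summit in ARR1_m, and there its 7.82 stood at percentile 18.9. CRF6 led the members in ARR1_BA, at percentile 5.86. In 7 lists its highest summit was upstream, from -387 to -238 bp of the start, while it fell in the coding sequence in ARR1_m (+419) and in label-mock ARR12 (+931). Those 2 peaks were 1156 and 5345 bp wide and also covered the upstream position. The gene lies on chromosome 3 at 22804998 to 22806527, plus strand. RRP41 (AT3G61620), which encodes a subunit of the RNA exosome, starts on the other side of the upstream region and was in range of CRF6 peaks in 8 lists.

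A separate summit lay 2604 to 2646 bp from the start of CRF6, downstream of its end, in ARR10_m (score 17.15) and ARR1_BA3d (66.87). In ARR1_BA, ARR10_BA and ARR14_BA3d the same place was covered by peaks of 46.55, 59.72 and 182.45 whose summits lay 4560 to 4623 bp from the start, out of range. The long noncoding RNA genes AT3G09665 and AT3G09675 were in range of CRF6 peaks in 2 lists.

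CRF10 had its highest scores past its end. Summits 2366 to 2672 bp from the start, downstream of a gene 2247 bp long, were found in 8 lists. Their scores were 21.67 in ARR1_m etiolated, 47.08 in ARR1_BA, 104.65 in ARR1_BA3d, 61.34 in DDK, 24.74 in ARR10_m, 39.67 in ARR10_BA, 15.47 in label-mock ARR12 and 246.02 in ARR14_BA3d. The last was the highest score of any member in any list, at percentile 1.43 with a fold enrichment of 12.57, and the peak in ARR1_BA3d stood at percentile 2.96. An upstream site, from -558 to -509 bp of the start, appeared in 6 lists at scores of 33.25 in ARR1_m etiolated, 39.16 in ARR1_BA3d, 21.16 in ARR10_m, 23.89 in ARR10_BA, 22.56 in label-mock ARR12 and 40.35 in ARR14_BA3d. The downstream score was the higher in 4 of these 6 lists, and the upstream score in ARR1_m etiolated and in label-mock ARR12. The gene lies on chromosome 1 at 25725455 to 25727701, minus strand, and no other annotated gene was in range of its peaks.

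CRF3, which takes part in lateral root development in the cold together with CRF2, had 1 site. It lay upstream, from -309 to -176 bp of the start, in 8 lists, with 133 bp between the outermost summits. The scores were 25.23 in ARR1_BA, 83.68 in ARR1_BA3d, 126.66 in DDK, 22.35 in ARR10_m, 47.07 in ARR10_BA, 54.76 and 13.89 in label-mock and label-6-BA ARR12, and 120.15 in ARR14_BA3d. CRF3 led the members in both ARR12 lists, at percentile 5.85 in label-mock and 32.2 in label-6-BA ARR12. Neither ARR1 list from mock-treated seedlings held a summit for it. The gene is on chromosome 5 at 21617714 to 21619281, minus strand.

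CRF1 and CRF2 were bound inside their coding sequences. For CRF1, 7 lists placed the summit 1369 to 1438 bp from the start, a spread of 69 bp. Its scores were 23.34 in ARR1_BA, 45.67 in ARR1_BA3d, 85.69 in DDK, 19.68 in ARR10_m, 10.7 in ARR10_BA, 26.61 in label-mock ARR12 and 174.7 in ARR14_BA3d. The peak in ARR10_BA was near the bottom of its list, at percentile 99.5, and that in ARR14_BA3d near the top, at 7.81. One further CRF1 summit, downstream at +3102 with a score of 33.44, was listed in ARR14_BA3d. CRF1 lies on chromosome 4 at 6794630 to 6796398, minus strand.

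CRF2, also known as TMO3, a target of the auxin response factor MONOPTEROS in the embryo, had its highest summit 1523 to 1589 bp from the start in 7 lists, a spread of 66 bp. Scores there were 18.96 in ARR1_BA, 44.11 in ARR1_BA3d, 127.36 in DDK, 12.23 in ARR10_m, 27.84 in ARR10_BA, 37.98 in label-mock ARR12 and 188.59 in ARR14_BA3d. CRF2 was last of the 7 in ARR1_BA and the highest of the 6 listed in DDK, where it led CRF3 by 127.36 to 126.66. Its upstream site, from -757 to -689 bp of the start, was weaker, with 18.25 in ARR1_BA, 9.52 in ARR10_m and 12.78 in ARR10_BA. The wide CRF2 peaks of ARR1_BA3d (3849 bp) and ARR14_BA3d (3921 bp) covered the upstream and the coding site together, and their summits lay in the coding sequence. CRF2 spans chromosome 4, 12376122 to 12378032, plus strand. No other annotated gene was in range of CRF1, CRF2 or CRF3 peaks.

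**Figure D2:**
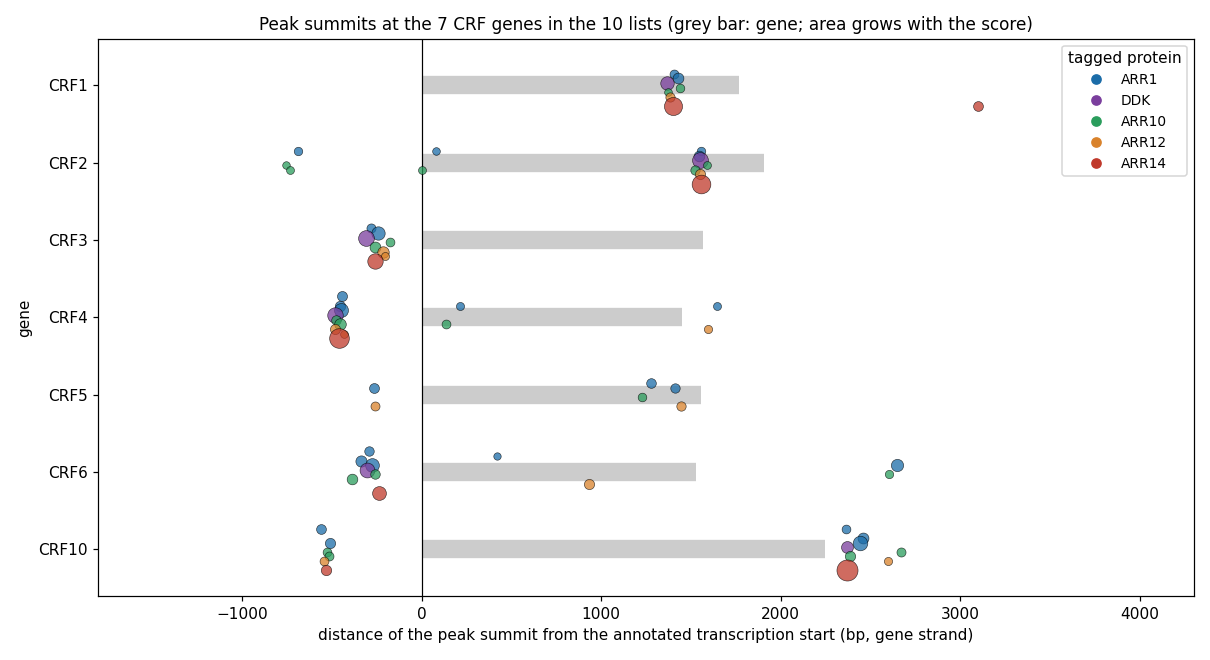
Distance of each peak summit from the annotated transcription start (bp, along the gene) for the 7 CRF genes. Grey bars are the genes, colours the tagged protein, and the area of a point grows with its score. Summits group upstream of CRF3, CRF4 and CRF6, in the coding sequence of CRF1 (+1369 to +1438) and CRF2 (+1523 to +1589), and past the end of CRF10.

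CRF5 was the weakest member, with a summit in 4 lists and no score above 34.45. Its highest summits scored 34.45 in ARR1_BA3d, 31.62 in ARR1_BA, 27.89 in label-mock ARR12 and 19.98 in ARR10_m. The best percentile was 19.6, in ARR1_BA. In ARR10_BA and ARR14_BA3d wide peaks overlapped CRF5, but their summits lay elsewhere: a peak of 4375 bp with a score of 51.08 had its summit 3373 bp from the CRF5 start, and one of 3923 bp with a score of 232.29 had it at 3411 bp. A rule that counts any base of a peak within 1500 bp made CRF5 a target in these lists and in DDK. It called 6 members in ARR10_BA, 7 in ARR14_BA3d and 7 in DDK, without a share of all genes under that rule to compare. Absence of a CRF5 summit in those lists is thus not absence of a peak near CRF5. Its 2 sites lay upstream from -264 to -258 bp of the start (2 lists) and in the 3′ UTR from 1225 to 1446 bp (4 lists). The upstream summit lay inside a neighbouring protein-coding gene, AT2G46308, which was in range in 4 lists, as was the long noncoding RNA gene AT2G09715. CRF5 spans chromosome 2, 19011462 to 19013018, plus strand.

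Joined within 200 bp, the summits of all lists gave 17 sites at the 7 genes. Of these, 14 held an AGATHY hexamer within 200 bp centred on the median summit. This is near the background, since 60.3% to 83.5% of all peaks of a list held one, as did 59.6% of windows placed every 1000 bp along the nuclear genome. The 3 sites with none were the upstream site of CRF5, the downstream site of CRF4 and the +3102 site of CRF1. In the 1500 bp before the start, the hexamers numbered 17 for CRF10, 12 for CRF2, 12 for CRF6, 9 for CRF3, 7 for CRF1, 7 for CRF5 and 6 for CRF4, against a median of 7 over protein-coding genes. CRF4 and CRF6, each listed 9 times, thus had 6 and 12.

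The G-box CACGTG was noticed after the sequences had been read, and its count is a description. It was in 5 of the 6 upstream sites, those of CRF2, CRF3, CRF4, CRF5 and CRF6, centred 20.5 to 52.5 bp from the median summit. It was in none of the other 11 sites. Among summits within 1000 bp upstream of a protein-coding gene and inside none, 15.1% to 29.3% had it in the same window, depending on the list, as did 2.19% of windows along the genome. The CRF5 site lies inside a gene and falls outside that comparison.

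Some sites of different members shared letters. For this the 200 bp centred on each median summit were compared, a wider window than the 121 bases printed above. The coding sites of CRF1 and CRF2 had a stretch of 20 bases in common, at chr4:6794970-6794989 and chr4:12377723-12377742, which ends in one of the hexamers, AGATAT, and 66.5% of 158 aligned bases were identical. The end of the CRF2 copy lies past the CRF2 window printed above.
CRF1 and CRF2 shared stretch: gaggaccattttcaagatat
The upstream sites of CRF3 and CRF4 had 18 bases in common, at chr5:21619531-21619548 and chr4:13911349-13911366. The CRF4 copy lies outside the CRF4 window printed above.
CRF3 and CRF4 shared stretch: atgaatgcggcgtcccgt
The upstream sites of CRF5 and CRF6 shared 13 bases, apart from their G-boxes, and so did the coding site of CRF1 and the 3′ UTR site of CRF5.
CRF5 and CRF6 shared stretch: accaagctataga
The 5′ UTR site of CRF2 shared 12 bases with a CRF4 site and 12 with a CRF6 site. Across 121 pairs of sites of different members the median longest stretch in common was 8 bases. CRF1 and CRF2 encode related proteins, and the part of coding similarity in their match was not tested.

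Treatment with 6-BA went with higher scores at the CRF genes for ARR1. Every member scored higher in ARR1_BA than in ARR1_m: 7 of 7 by score, by fold enrichment and by percentile, where 84.7%, 72.9% and 76.8% of genes with a peak in either list did. For 6 of the 7 the score in ARR1_m was missing. CRF6, the exception, went from 7.82 to 51.42 in score, from 2.82 to 3.48 in fold enrichment and from percentile 18.9 to 5.86. Its values are for different summits, at +419 in the coding sequence in ARR1_m and at -336 upstream in ARR1_BA. The count is thus in the direction that most listed genes took. It rests on an ARR1_m list with far fewer targets than the study reports, so a missing score there may not mean missing binding.

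From 4 h to 72 h of 6-BA the ARR1 scores were higher at 72 h for all 7 members, where 85.9% of genes listed in either did. The ratio of the 72 h score to the 4 h score was 3.32 for CRF3 (25.23 to 83.68), 2.33 for CRF2 (18.96 to 44.11), 2.30 for CRF4 (40.84 to 94.01), 2.22 for CRF10 (47.08 to 104.65), 1.96 for CRF1 (23.34 to 45.67), 1.75 for CRF6 (51.42 to 89.84) and 1.09 for CRF5 (31.62 to 34.45). CRF3 moved furthest up its list, from percentile 29.7 to 5.77. By percentile 6 members moved up (72.2% of genes did) and CRF5 moved down, from 19.6 to 34.2. The CRF5 values are for different sites, the 3′ UTR at 4 h and the upstream site at 72 h. At the 3′ UTR site alone the CRF5 score was lower at 72 h, at 28.62 against 31.62. All 7 fold enrichments were higher at 72 h, as were 92.1% over all genes.

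For ARR10 the members did not move alike. Score and fold enrichment were higher in ARR10_BA than in ARR10_m for 5 members, against 57.9% and 35.4% of genes, and lower for CRF1 and CRF5. The score of CRF4 went from 30.65 to 56.83, of CRF3 from 22.35 to 47.07, of CRF2 from 12.23 to 27.84, of CRF10 from 24.74 to 39.67 and of CRF6 from 29.98 to 43.73. CRF1 went the other way, from 19.68 to 10.7, and CRF5 from 19.98 to no summit in range beside the covering peak given above. By percentile 3 members ranked higher with 6-BA, namely CRF2, CRF3 and CRF4, against 26.6% of genes. CRF6 and CRF10 changed little in rank, from 10.4 to 13.7 and from 16.2 to 16.9.

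As labelled, all 7 members were lower in the ARR12 6-BA list than in the mock list, and 0 were higher, where 17% of genes were by score, 17.4% by fold enrichment and 28.9% by percentile. With the 2 lists exchanged all 7 were higher. CRF3 had 54.76 in the label-mock list and 13.89 in the label-6-BA list, CRF4 had 37.21 and 11.35, and the other 5 were listed in the label-mock list alone. The direction of the ARR12 comparison thus rests on which label is right, and the study's own target columns match the exchanged reading.

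Light and the other tagged proteins were compared with ARR1 in the same way. In ARR1_m etiolated CRF4, CRF10 and CRF6 scored 35.92, 33.25 and 29.63, while the other 4 members were absent from both lists. These scores put 3 members higher than in ARR1_m by score (35.6% of genes with a peak in either list) and by fold enrichment (31.2%). The count by score was nearly fixed beforehand, because the etiolated list begins at 20.6. Of the 2142 genes with a summit in it, 2138 were higher there by score, 1879 by fold enrichment and 1502 by percentile. CRF6 was the only one of the 3 members with a rank in both lists. It stood lower in the etiolated list, at percentile 35.9 against 18.9, so that 2 members were higher by percentile (25% of genes). ARR14_BA3d exceeded ARR1_BA3d by score at 6 members, against 78.2% of genes, but by fold enrichment and by percentile at 4 (57.5% and 44.2%): CRF1, CRF2, CRF4 and CRF10. CRF2 went from percentile 23.4 in ARR1_BA3d to 5.96 in ARR14_BA3d, and CRF1 from 22.0 to 7.81, while CRF6 went from 4.69 to 30.4 and CRF3 from 5.77 to 18.9. In ARR1_BA3d the upstream-bound CRF3, CRF4 and CRF6 thus ranked above the coding-bound CRF1 and CRF2. The upstream summits of CRF5 and CRF10 ranked below CRF1 and CRF2 there, at percentiles 34.2 and 28.3. In ARR14_BA3d CRF1 and CRF2 ranked above CRF3 and CRF6 but below CRF4, at 3.90.

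DDK exceeded ARR1_BA3d by score at 5 members, where 19.9% of the 15604 genes with a peak in either list did. Only 4687 genes had a DDK summit, and a gene without one could not be higher. Of these 4687 genes, 3103 were higher by score, 1711 by fold enrichment and 1378 by percentile. By fold enrichment and by percentile 2 members were higher in DDK (11% and 8.83% of genes with a peak in either list). These were CRF1 and CRF2, which stood at percentiles 17.0 and 6.10 in DDK. CRF10 went the other way, from a score of 104.65 and percentile 2.96 in ARR1_BA3d to 61.34 and 34.4 in DDK. The DDK list begins at a score of 31.21, and CRF5, at 34.45 in ARR1_BA3d, had no summit in it.

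CRF2, CRF5 and CRF6, the members known as induced by cytokinin, had a lower median score than CRF1, CRF3, CRF4 and CRF10 in 7 of the 10 lists and a higher one in 2, and neither group had a target in ARR1_m. With an absent gene taken as 0, the median was 31.62 against 33.04 in ARR1_BA, 44.11 against 88.84 in ARR1_BA3d, 27.84 against 43.37 in ARR10_BA and 91.23 against 192.91 in ARR14_BA3d. It was the higher in DDK (109.24 against 103.7) and in label-mock ARR12 (37.98 against 31.91). In the other lists with any value it was 0 against 16.62 in ARR1_m etiolated, 19.98 against 23.55 in ARR10_m and 0 against 5.67 in label-6-BA ARR12. CRF5 counted as 0 in ARR10_BA and ARR14_BA3d, although wide peaks of 51.08 and 232.29 with summits out of range overlapped it. The gaps between the groups in those lists thus depend on the summit rule. The order in ARR1_BA and in label-mock ARR12 turned with fold enrichment (2.83 against 2.79, and 5.58 against 5.93). Within the 3, CRF6 led CRF2 and CRF5 in ARR1_BA, ARR1_BA3d, ARR10_m, ARR10_BA and label-mock ARR12. It was the only one of the 3 listed in ARR1_m etiolated and in ARR1_m. CRF2 led in DDK and ARR14_BA3d. The 2 groups overlapped in each list where both had 2 or more genes listed.

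**Figure D3:**
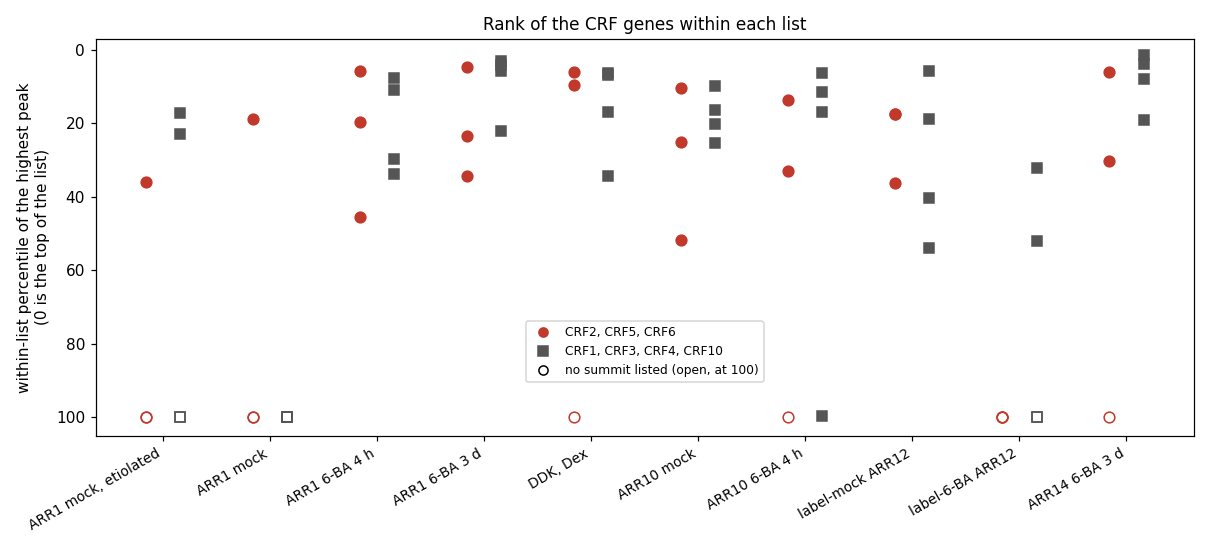
Within-list percentile of the highest peak of each CRF gene (0 is the top) in the 10 lists, with CRF2, CRF5 and CRF6 as red circles and CRF1, CRF3, CRF4 and CRF10 as grey squares. Open symbols at 100 mark genes with no summit in range. The groups overlap, and in ARR1_BA3d CRF10, CRF4, CRF6 and CRF3 stand between 2.96 and 5.77.

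Beside other genes of the pathway the CRFs ranked below the type-A ARRs in 8 of the 10 lists by the median percentile of genes with a summit. All 10 type-A ARRs were targets in ARR1_BA, ARR1_BA3d, DDK and ARR14_BA3d. Their median percentile was 2.50 in ARR1_BA against 19.6 for the 7 CRFs, 0.252 against 5.77 in ARR1_BA3d, 0.252 against 6.88 in ARR14_BA3d and 3.05 against 8.20 in DDK, counting genes with a summit. In ARR1_m etiolated and in label-mock ARR12 the CRF median was the better, at 22.8 against 31.1 and at 18.9 against 21.7. The etiolated median covers only the 3 CRFs and the 8 type-A ARRs with a summit. With absent genes set to 100 the order turned in that list, to 100 for the CRFs against 51.4, and 42.9% of the CRFs were targets against 80% of the type-A ARRs. Of the 6 AHP genes, 2 were targets in ARR1_BA (17.5% of all genes), 4 in ARR1_BA3d (34.3%) and all 6 in ARR14_BA3d (37.9%). Another 4 list counts were 2 in DDK (12.4%), 4 in ARR10_BA (21.4%), 1 in ARR10_m (16.3%) and 1 in label-mock ARR12 (21.1%). No AHP gene was a target in ARR1_m etiolated, ARR1_m or label-6-BA ARR12.

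Among 143 other genes annotated as AP2/ERF factors, 35.0% were targets in ARR1_BA, 58.0% in ARR1_BA3d and 55.9% in ARR14_BA3d, above the shares of all genes in each. Of the 5 remaining genes of the CRF clade, 3 were targets in ARR14_BA3d (60%, against 37.9% of all genes), 2 in ARR1_BA3d (40%, against 34.3%) and 1 in label-mock ARR12 (20%, against 21.1%), and none in the other 7 lists. CRF9 and CRF12 had no summit in any list. CRF7 had 1, in ARR14_BA3d (38.35), and CRF11 had 2, in ARR1_BA3d (20.2) and ARR14_BA3d (177.44). CRF8 had a summit in 6 lists and was a target in 3, and in 5 of them the neighbouring gene AT1G71140 was in range as well.

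**Figure D4:**
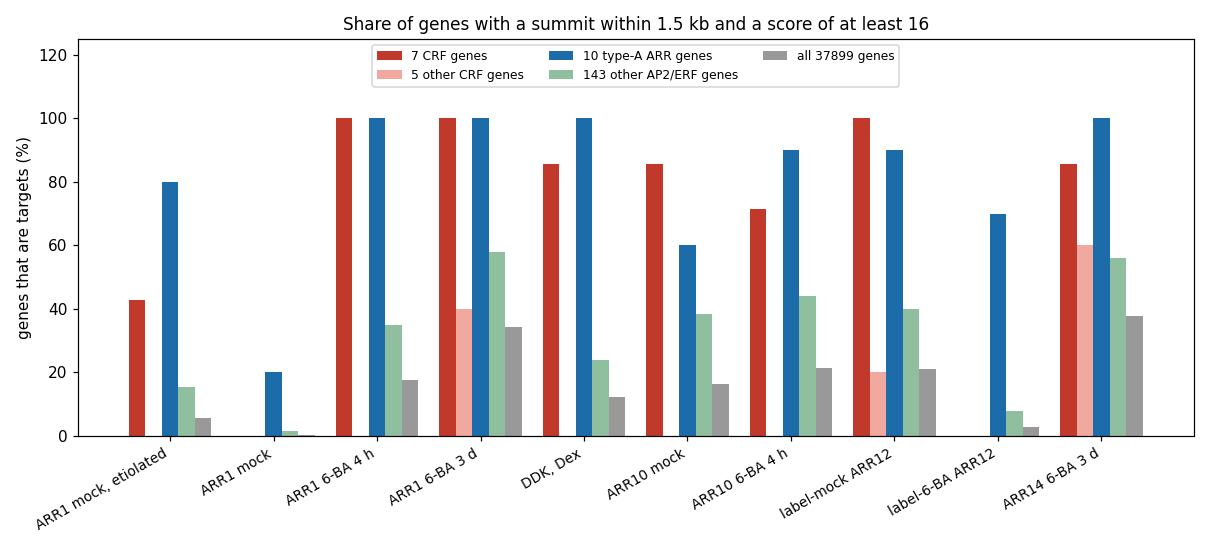
Share of genes (%) that are targets (summit within 1500 bp, score of at least 16) in each of the 10 lists, for 7 CRF genes, 5 other CRF genes, 10 type-A ARR genes, 143 other AP2/ERF genes and all 37899 genes. The 7 CRF genes reach 100% in ARR1_BA, ARR1_BA3d and label-mock ARR12.

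The genes whose percentiles over the 10 lists were most like those of each member, with absence set to 100, were found by the mean absolute difference. For CRF4 they were AT3G07640 and COL9, a regulator of flowering time, at a mean difference of 4.38 percentile points. For CRF5 they were FBA4, an aldolase gene, at 3.91 and PFC1 at 4.78. CRF2 was nearest to PDR2 (5.43) and AT2G39920 (5.54), and CRF1 to AT1G56080 and AT1G56085 (6.06). CRF3 was nearest to AT2G18780 and PHYB, which encodes a red light receptor (6.81), CRF10 to AT5G65030 and AT5G65040 (6.66), and CRF6 to CDSP32 (8.27) and AT1G01715 (8.96). The paired genes with equal values share the same peaks.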

How the data were processed

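ChIP-seq of tagged B-ARRs was compared over 10 peak lists, 1 for each condition. The authors aligned reads with Bowtie 0.12.7 to TAIR10 and called peaks against input with MACS2 2.0.10 (versions from the submitters' processing notes), then combined at least 2 replicates by IDR before deposit. The deposited columns used were the −log10 p-value, the fold enrichment (a linear ratio) over input and the summit offset. The deposited score column was 10 times the −log10 p-value and was used only to check this. Read depth per sample was not given in the sources used here, so precision cannot be stated. The 2 RNA-seq records hold the authors' own comparisons (fold changes and p-values), and were not used.

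Summits were assigned, with Python 3.11.15, NumPy 2.4.6 and pandas 2.3.3, to every RefSeq TAIR10.1 gene within 1500 bp, which gives 37899 genes and pseudogenes. A target needed a score of at least 16. Summits were joined into sites within 200 bp, and hexamers were counted on both strands in 200 bp. In label-mock ARR12, 2 peaks lay outside the reference. Scripts were tested on made-up peaks. Alternatives covered the minimum score, distance, assignment, measure, joining distance and motif window. Backgrounds over protein-coding genes, hexamers ending in T and the CACGTG search were added after seeing the data.

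Members and gene lists were chosen with earlier results of these data known. All 7 members, every gene in range of their peaks, the 5 other CRF genes and the 2 most similar genes of each member were named. Type-A ARR, AHP and AP2/ERF genes were given as counts and medians.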

Additional observations from a re-analysis of the deposited data

Results flagged for a closer look

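At CRF1 the ARR10 score was lower with 6-BA than with mock, by a difference of -8.98, whereas the ARR1 score was higher with 6-BA. At CRF5 the ARR10 difference was -19.98, with absence taken as 0, although a peak of 51.08 with its summit out of range overlapped the gene in ARR10_BA. As labelled, 7 members were lower in the ARR12 6-BA list than in the mock list, against the direction for ARR1. With 1 list per condition none of these differences was tested.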

How the results depend on the processing

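With every deposited peak in place of a score of at least 16, 1 member was a target in ARR1_m and 2 in label-6-BA ARR12. With a minimum score of 30, 4 were in ARR1_BA, 1 in ARR10_m and 4 in label-mock ARR12. With the 1500 highest peaks of each list, the targets numbered 3 in ARR1_m etiolated, 1 in ARR1_m, 3 in ARR1_BA and 4 in ARR1_BA3d. They numbered 6 in DDK, 2 in ARR10_m, 4 in ARR10_BA, 4 in label-mock ARR12, 1 in label-6-BA ARR12 and 4 in ARR14_BA3d. Shares of all genes are not given for the score of 30 or the 1500 peaks, so these counts have no background beside them. By percentile, 3 members were higher in ARR10_BA than in ARR10_m, and by fold enrichment or percentile 2 were higher in DDK than in ARR1_BA3d. With the ARR12 lists exchanged, 7 were higher with 6-BA. The median of CRF2, CRF5 and CRF6 minus that of the other members turned sign in ARR1_BA, to 0.045 in fold enrichment and 0.6946 percentile points in their favour, and in label-mock ARR12, to -0.35 in fold enrichment. A window of 100 bp left 7 of the 17 sites with a hexamer. In that window 36.9% to 66.4% of the peaks of a list held one, as did 36.3% of windows along the genome. With peaks given to the nearest protein-coding gene, the score of CRF5 in ARR1_BA3d was 28.62, the 1 of 104 recomputed member scores that moved. The upstream summit of 34.45 lies inside AT2G46308 and went to that gene under this rule, which left the 3′ UTR summit of 28.62. In all, 17 recomputed values moved, 3 reversed and 194 did neither, where a count within 1.5 times the reported one was not taken as moved. No paired analysis was possible because the lists merge their replicates, 1 list to a condition. Lists start at different scores, so a member missing from one may hold a weaker peak that was not listed.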
